A study of Mus musculus with 8 samples.

Results

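The 10 genes described here encode enzymes and 1 droplet protein of triglyceride synthesis in brown adipose tissue (BAT): *Gpd1*, *Gk*, *Gpam*, *Agpat2*, *Agpat3*, *Lpin1*, *Lpin2*, *Dgat1*, *Dgat2* and *Cidec*. They were chosen by name and function, as genes of glycerol phosphate supply, stepwise acylation and droplet growth, with earlier results of these data known. They make up 10 of the 44674 gene identifiers measured. RNA was sequenced from BAT of 4 control littermates (labelled CTRL, Ox1R fl/fl without the Cre transgene) and 4 Ox1RΔSERT mice (labelled Sert-Ox1R, Ox1R fl/fl with Sert-Cre tg/wt). All 8 were male, received a high-fat diet (HFD) from 4 to 18 weeks of age, and were sampled at 14 to 16 h when a hyperinsulinemic-euglycemic clamp ended. Both groups therefore carried the floxed orexin receptor alleles and had been exposed to clamp insulin. Sert-Cre acts in cells that express the serotonin transporter, so the receptor was targeted in those cells. Whether brown adipocytes are among them was not tested here.

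Brown adipocytes store triglyceride in many small droplets and burn its fatty acids to make heat. In the glycerol phosphate pathway, glycerol 3-phosphate receives a first fatty acyl chain from GPAT enzymes and a second from AGPAT enzymes, lipins remove the phosphate to give diacylglycerol, and DGAT enzymes attach the last chain. CIDE proteins then let droplets grow by passing lipid between droplets in contact. Insulin is known to favour this route in adipose tissue.

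All 10 genes passed the filter on low counts, which left 14489 genes in the test. Neither edgeR's quasi-likelihood test nor DESeq2 called any of the 10, at a threshold of 0.05 on p-values adjusted over all genes. In values scaled to the library by TMM, 9 of the 10 had a lower mean in Ox1RΔSERT mice and *Lpin2* a higher one, but the directions of *Gpd1*, *Gpam*, *Agpat2*, *Agpat3* and *Lpin1* turned on the TPM scale and those of *Agpat2* and *Lpin1* when libraries were scaled by their totals alone. The lowest unadjusted p-values were those of *Cidec* and *Gk*. In bulk tissue, fewer cells of a type and less RNA per cell cannot be told apart.

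The 8 libraries held 35852708 to 50063339 estimated counts, of which 33.6% to 46.8% were on mitochondrially encoded genes. On the first principal component (53.6% of the variance) Ox1RΔSERT mice 11601 and 11708 had scores of 59.3 and 77.0, against -44.3 to 7.13 for the remaining 6 mice, so the fold change of each of the 10 genes is given with and without those 2 mice. *Hcrtr1*, the gene of the deleted receptor, had 0 to 5 counts in a library and cannot check the genotype in this tissue. The brown fat label was met by *Ucp1*, the uncoupling protein that makes heat, at normalized values of 2513 to 4895. Summed macrophage markers were 911 and 716 in mice 11601 and 11708 against 114 to 254 in the other 6, and summed fibroblast markers 2484 and 1284 against 209 to 498. All 8 macrophage and all 5 fibroblast markers had a higher mean in Ox1RΔSERT mice, and all 8 brown adipocyte markers a lower one (sums of 3848 to 5909 against 5760 to 7832 in control mice), with none of these markers called by edgeR (0% of all tested genes) and 4, 1 and 1 called by DESeq2 (1.75% of all). Adipocyte markers (2 higher, 4 lower) and endothelial markers (2 higher, 2 lower) had median log2 fold changes of -0.03 and -0.02. Summed adipocyte markers were still lowest in mice 11601 and 11708, at 6028 and 5451 against 7150 to 8790 in the other 6. Most of those 2 sums was *Fabp4* (4882 and 4271). *Adipoq*, *Fabp4*, *Plin1* and *Pparg* were each lowest in these 2 mice. *Lep* was not (92.7 and 145, the latter the highest of all 8), and *Cfd* was lowest in mouse 11243. Summed endothelial markers were 228 and 304 in mice 11601 and 11708 against 235 to 333. Summed skeletal muscle markers were 1670 in control mouse 11253 and 2241 in mouse 11708 against 27.5 to 209 in the rest. The part of these marker differences in the values below was not tested.

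TPM values, which correct for transcript length as well as library depth, allow the genes to be ordered by level. Over the 8 mice the mean TPM was 1603 for *Gpd1*, which reduces dihydroxyacetone phosphate to glycerol 3-phosphate, and 397 for *Cidec*. *Gpd1* stood above *Cidec* in all 8 mice. *Dgat2* (257), *Agpat2* (236), *Agpat3* (173) and *Gk* (135) followed, and *Gpam* (87.4), *Dgat1* (86.7) and *Lpin1* (72.0) lay below them. Some neighbours in this order could not be separated: *Dgat2* was above *Agpat2* in 4 of 8 mice and *Gpam* above *Dgat1* in 4 of 8. *Agpat3* was above *Gk* in 6 of 8, and *Dgat1* above *Lpin1* in 6 of 8. *Lpin2* was the least abundant by TPM, at 3.46, and *Lpin1* exceeded it in every mouse.

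**Figure D1:**
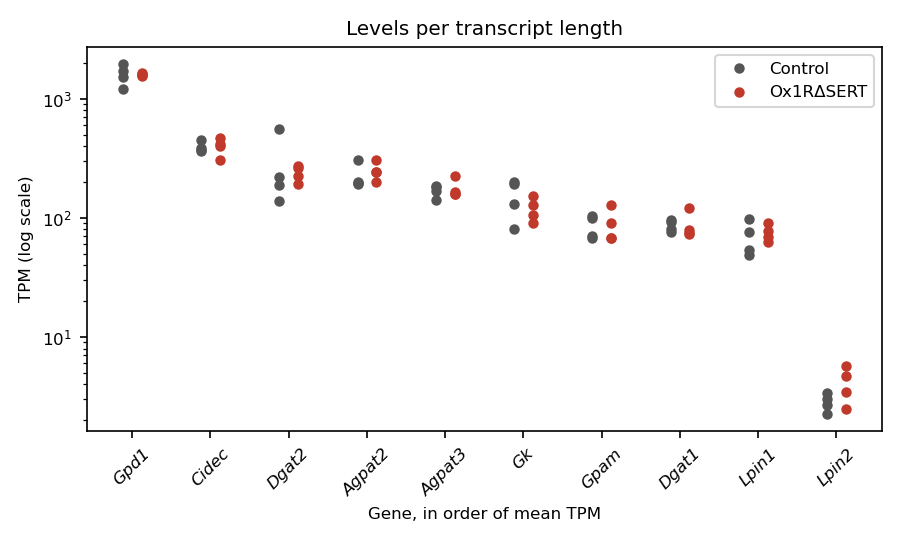
TPM of each gene in each mouse (log axis), with genes in order of mean TPM and 1 point per mouse, control mice in grey and Ox1RΔSERT mice in red. *Gpd1* sits at 1219 to 1948 TPM in all 8 mice and *Lpin2* at 2.27 to 5.75 TPM, with the groups overlapping for every gene.

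Pairs of isoenzymes differed in how steady their TPM ratio was. The *Agpat2* to *Agpat3* ratio stayed between 1.07 and 1.66 in the 8 mice, and the *Lpin1* to *Lpin2* ratio between 13.5 and 36.4. The *Dgat2* to *Dgat1* ratio was 7.25 in control mouse 10684 and 1.44 to 3.35 in the other 7. For glycerol 3-phosphate supply, the *Gk* to *Gpd1* ratio was 0.0414 in the same mouse 10684, the lowest of all, and reached 0.125 in control mouse 11563.

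The promoters of *Gk* and *Cidec*, the members with the lowest p-values, are shown at annotated start sites, and which start sites the sequenced transcripts used was not measured. Both windows run 5′ to 3′ along the gene's strand from 250 bases before the start site to 50 after it (RefSeq, GRCm38.p6). RefSeq windows were found for 7 of the 10 genes, 11 windows in all, with none for *Gpd1*, *Dgat1* and *Dgat2*. The *Gk* window lies at chrX:85776770-85777069 on the minus strand, and the *Cidec* window printed, the one at the gene's outer end of the 2 that RefSeq gives, at chr6:113435711-113436010 on the minus strand. Capitals mark matches, on either strand, to CACGTG (an E-box, bound by basic helix-loop-helix factors) and GGGCGG (a GC box, read as CCGCCC on the other strand).
Gk: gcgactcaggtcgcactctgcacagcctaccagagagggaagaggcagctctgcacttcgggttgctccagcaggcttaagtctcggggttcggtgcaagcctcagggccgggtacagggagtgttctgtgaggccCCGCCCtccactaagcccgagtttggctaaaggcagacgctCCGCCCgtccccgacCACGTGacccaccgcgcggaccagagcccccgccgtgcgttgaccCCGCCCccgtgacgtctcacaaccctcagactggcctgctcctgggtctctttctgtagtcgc
Cidec: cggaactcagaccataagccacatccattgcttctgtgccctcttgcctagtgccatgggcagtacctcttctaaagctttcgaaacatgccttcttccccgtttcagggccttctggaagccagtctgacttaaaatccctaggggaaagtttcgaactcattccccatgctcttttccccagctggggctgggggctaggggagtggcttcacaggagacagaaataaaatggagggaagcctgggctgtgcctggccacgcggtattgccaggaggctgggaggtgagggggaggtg

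The *Gk* window held an E-box whose first base was 58 bases before the start site and 3 GC boxes, and neither *Cidec* window held either motif. E-boxes were found in 2 of the 11 windows (*Gk* and *Lpin2*) and in 7.15% of the 32851 mouse promoter windows, and GC boxes in 5 of the 11 and in 35.7%. The letters AGGTCA, a nuclear receptor half-site, were found in 1 window each of *Gpam* and *Lpin1*, against 16.3% of all windows. No member window held TCACNCCAC, a sterol regulatory element, which 1.24% of all windows held, or TATAAA, which 13.6% held. CCAAT was found in 2 of the 11 windows and in 37.4% of all. These matches describe letters in a window and say nothing of binding.

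Glycerol 3-phosphate supply was described by *Gpd1* and *Gk*. *Gpd1* (ENSMUSG00000023019, chromosome 15, 99717515 to 99725005, GRCm38) was measured at normalized values, that is, counts scaled to library depth after TMM correction (CPM), of 7270, 5105, 6494 and 5645 in control mice 10684, 11253, 11560 and 11563. In Ox1RΔSERT mice 11243, 11601, 11613 and 11708 they were 6175, 4060, 5101 and 4515, and this order of mice is kept below. Of the Ox1RΔSERT mice, 3 lay below all control mice and 11243 lay among them. The means were 6129 ± 952 and 4963 ± 914 (SD, n = 4 each), and the log2 fold change was -0.30 with a 95% interval of -0.73 to 0.12. The adjusted p was 0.439 in edgeR and 0.382 in DESeq2. Without mice 11601 and 11708 the log2 fold change of *Gpd1* was -0.12. An antisense transcript shares 384 exon bases with *Gpd1*.

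*Gk*, glycerol kinase, phosphorylates free glycerol and lets brown fat reuse the glycerol released by lipolysis. Its normalized values (ENSMUSG00000025059, chromosome X, 85701937 to 85776819) were 278, 544, 733 and 706 in control mice and 409, 338, 393 and 237 in Ox1RΔSERT mice. Only control mouse 10684 fell within the range of the Ox1RΔSERT mice, and the other 3 control mice lay above all 4 of them. With TMM scaling and all 8 mice, *Gk* had the largest difference of the 10 genes, with a log2 fold change of -0.72 (standard error 0.30) and means of 565 ± 209 and 344 ± 77.8 (SD, n = 4 each). The 95% interval of the fold change ran from -62.1% to -2.15% relative to control mice. The unadjusted p of *Gk* was 0.0422, the adjusted p 0.325 in edgeR and 0.186 in DESeq2, and the exact two-sided permutation test gave p = 0.114, where the smallest possible with 4 against 4 mice is 0.0286.

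With any 1 mouse left out *Gk* stayed lower in Ox1RΔSERT mice, by log2 fold changes of -0.94 to -0.57, while its unadjusted p moved across 0.05. On the log2(TPM + 1) scale the difference of *Gk* was -0.28, smaller in size than that of *Lpin2* (0.38), and without control mouse 11560 or 11563 *Dgat2* differed more than *Gk*. Without control mouse 10684 the groups no longer overlapped, as was then so for 14.1% of all tested genes, and the log2 fold change was -0.94 (edgeR unadjusted p = 0.0022, adjusted p = 0.306). That mouse held the only overlapping control value of *Gk*, so the loss of overlap followed from leaving it out. The share of all genes leaves out the same mouse for every gene and does not match that choice. Without control mouse 11560 the log2 fold change of *Gk* was -0.57 (edgeR unadjusted p = 0.117), and without mice 11601 and 11708 it was -0.49 (edgeR unadjusted p = 0.212). Mouse 10684 was thus the control mouse with the least *Gk* and the most *Gpd1*. An antisense transcript shares 84 exon bases with *Gk*.

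*Gpam* encodes the mitochondrial GPAT enzyme that adds the first acyl chain. Its normalized values (ENSMUSG00000024978, chromosome 19, 55067268 to 55127238) were 332, 365, 492 and 493 in control mice and 337, 229, 505 and 316 in Ox1RΔSERT mice. The groups overlapped, with the highest value in Ox1RΔSERT mouse 11613 and the lowest in 11601. The log2 fold change of *Gpam* was -0.28 (95% interval -0.83 to 0.27, edgeR adjusted p = 0.582). It was -0.52 without mouse 11613 (edgeR unadjusted p = 0.0345, adjusted p = 0.236), -0.12 without mouse 11601 and 0.01 without mice 11601 and 11708.

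*Agpat2* and *Agpat3* encode enzymes of the second acylation, and loss of *AGPAT2* is known to cause congenital lipodystrophy in people. *Agpat2* (ENSMUSG00000026922, chromosome 2, 26593057 to 26604417) was measured at normalized values of 496, 348, 322 and 320 in the control group and 411, 231, 425 and 285 in Ox1RΔSERT mice. Mouse 10684 was the highest of all 8, and the other 3 control mice lay between Ox1RΔSERT mice. *Agpat2* differed by a log2 fold change of -0.14 (95% interval -0.65 to 0.38, edgeR adjusted p = 0.788), and it was 0.03 without mouse 10684, -0.27 without mouse 11613 and 0.18 without mice 11601 and 11708. *Agpat2* shares 64 exon bases with *Egfl7* on the opposite strand.

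*Agpat3* (ENSMUSG00000001211, chromosome 10, 78269178 to 78352489) was at 585, 479, 569 and 530 in control mice and 548, 378, 504 and 363 in Ox1RΔSERT mice, as normalized values. Mice 11601 and 11708 lay below all control mice and the other two Ox1RΔSERT mice among them. The log2 fold change of *Agpat3* was -0.27 (95% interval -0.62 to 0.08, edgeR adjusted p = 0.413), against -0.03 without mice 11601 and 11708.

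Lipins release the phosphate of phosphatidic acid to form diacylglycerol, and *Lpin1* is the main family member of adipose tissue. *Lpin1* (ENSMUSG00000020593, chromosome 12, 16535669 to 16610966) was measured at normalized values of 702, 402, 573 and 386 in the control group and 533, 329, 462 and 486 in Ox1RΔSERT mice. Control mice spread widely, with 10684 highest, and 3 of 4 Ox1RΔSERT mice fell within their range. For *Lpin1* the log2 fold change was -0.19 (95% interval -0.70 to 0.32, edgeR adjusted p = 0.696). It was -0.0051 without mouse 10684, -0.06 without mouse 11601, -0.32 without mouse 11563 and -0.05 without mice 11601 and 11708.

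*Lpin2* (ENSMUSG00000024052, chromosome 17, 71182560 to 71249817) was the only gene of the 10 with a higher mean in Ox1RΔSERT mice. Its normalized values were 16.9, 17.1, 20.8 and 19.8 in control mice and 16.9, 18.2, 16.9 and 25.7 in Ox1RΔSERT mice. Mouse 11708 was the highest of the 8, and the other 3 Ox1RΔSERT mice lay within or at the edge of the control range. The log2 fold change of *Lpin2* was 0.06 (95% interval -0.29 to 0.41, edgeR adjusted p = 0.872), and it was -0.10 without mouse 11708 and -0.14 without mice 11601 and 11708.

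*Dgat1* and *Dgat2* are unrelated in sequence and catalyse the same last step. *Dgat1* (ENSMUSG00000022555, chromosome 15, 76502015 to 76511953) was measured at normalized values of 129, 146, 148 and 151 in the control group and 124, 87.9, 153 and 88.1 in Ox1RΔSERT mice. Control mice were close together, whereas Ox1RΔSERT mice split, with 11601 and 11708 low, 11243 just under the lowest control mouse and 11613 above the highest. The coefficient of variation of *Dgat1* was 6.75% in control and 27.7% in Ox1RΔSERT mice. The log2 fold change was -0.34 (95% interval -0.75 to 0.07, edgeR adjusted p = 0.383), -0.52 without mouse 11613, where the groups no longer overlapped, as for 10.4% of all tested genes (edgeR unadjusted p = 0.008, adjusted p = 0.208) and -0.05 without mice 11601 and 11708. Mouse 11613 was the only Ox1RΔSERT mouse not below all control mice for *Dgat1*, so the loss of overlap followed from leaving it out.

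The opposite spread was seen for *Dgat2* (ENSMUSG00000030747, chromosome 7, 99153658 to 99182719). Its normalized values were 1380, 620, 484 and 342 in control mice and 506, 396, 583 and 482 in Ox1RΔSERT mice. Mouse 10684 had more than any other mouse, and all Ox1RΔSERT mice fell within the range of the control mice. The coefficient of variation of *Dgat2* was 65.6% in control and 15.6% in Ox1RΔSERT mice. For *Dgat2* the estimate on the log2 scale was -0.52 (standard error 0.39, 95% interval -62.2% to 28.2% relative to control mice, edgeR adjusted p = 0.517), but 0.03 without mouse 10684. Without mice 11601 and 11708 it was -0.37. On the log2(TPM + 1) scale the differences of *Dgat1* and *Dgat2* were -0.02 and -0.01.

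*Cidec*, also known as FSP27, sits where droplets touch and promotes their fusion into larger ones. Its normalized values (ENSMUSG00000030278, chromosome 6, 113424634 to 113435760) were 812, 759, 725 and 668 in control mice and 590, 536, 718 and 532 in Ox1RΔSERT mice. Of the Ox1RΔSERT mice, 3 lay below all control mice, and 11613 lay above the lowest control mouse 11563. The means were 741 ± 60.4 and 594 ± 86.9 (SD, n = 4 each). On the log2 scale *Cidec* differed by -0.32 (standard error 0.13, 95% interval -0.61 to -0.03).

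*Cidec* had the lowest unadjusted p of the 10 genes, 0.0352 in edgeR, with an adjusted p of 0.317 there and 0.210 in DESeq2. The exact two-sided permutation test of *Cidec* gave p = 0.0571. The groups no longer overlapped without mouse 11613, as was then so for 10.4% of all tested genes, and the log2 fold change was -0.43 (edgeR unadjusted p = 0.00577, adjusted p = 0.208). The same held without control mouse 11563 (8.54% of all genes), with a log2 fold change of -0.38 (edgeR unadjusted p = 0.0393). Mice 11613 and 11563 held the overlapping values of *Cidec*, so the loss of overlap followed from leaving either out. The shares of all genes leave out the same mouse for every gene and do not match that choice. Without mice 11601 and 11708 the log2 fold change of *Cidec* was -0.18 (edgeR unadjusted p = 0.206). On the TPM scale *Cidec* was at 453, 366, 390 and 374 in control mice and 308, 418, 467 and 399 in Ox1RΔSERT mice, a log2(TPM + 1) difference of -0.0026.

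**Figure D2:**
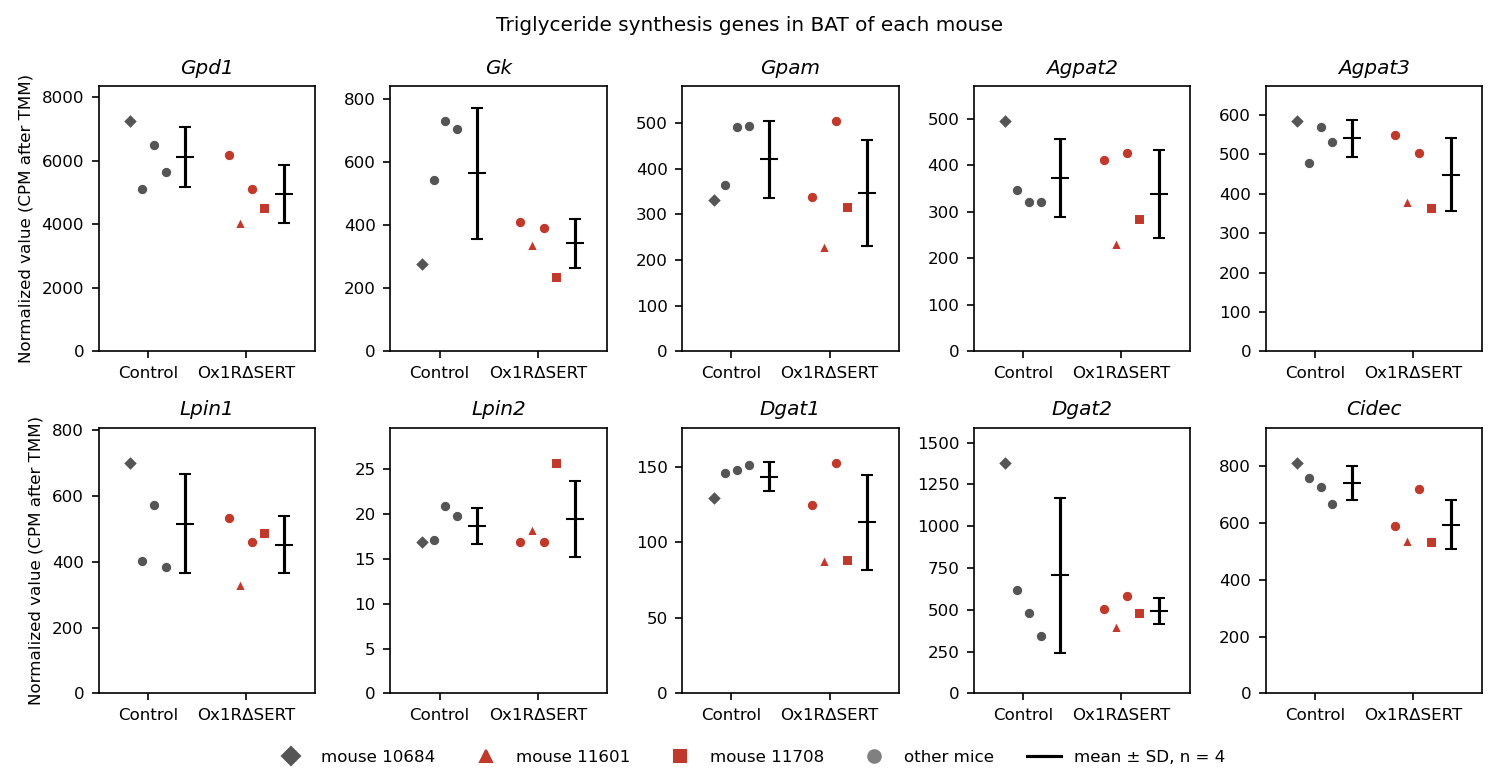
Normalized value (CPM after TMM scaling, linear axis from 0) of each gene in each mouse, with 1 symbol per mouse and, in black, the mean and SD of the 4 mice of a group. Every gene overlaps between control (grey) and Ox1RΔSERT mice (red). Mouse 10684 is the highest control point for *Dgat2* at 1380, and mice 11601 and 11708 are the lowest red points for *Dgat1* at 87.9 and 88.1.

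Counted together, 0 of the 10 genes passed an adjusted p of 0.05 in edgeR, where 0% of all 14489 genes did, and 0 of 10 in DESeq2, where 1.75% did. At an unadjusted p under 0.05, edgeR counted 2 of the 10, both lower in Ox1RΔSERT mice, where 15.2% of all tested genes passed, 10.2% as higher and 4.96% as lower. The groups did not overlap for 0 of the 10, against 5.5% of all genes, 2.69% with Ox1RΔSERT mice higher and 2.81% with them lower. The median log2 fold change of the 10 genes was -0.29, beside 0.00 for all tested genes, of which 49.6% were lower in Ox1RΔSERT mice. The 95% intervals of 8 of the 10 genes included 0, so differences of the sizes within them were not resolved with 4 mice a group.

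**Figure D3:**
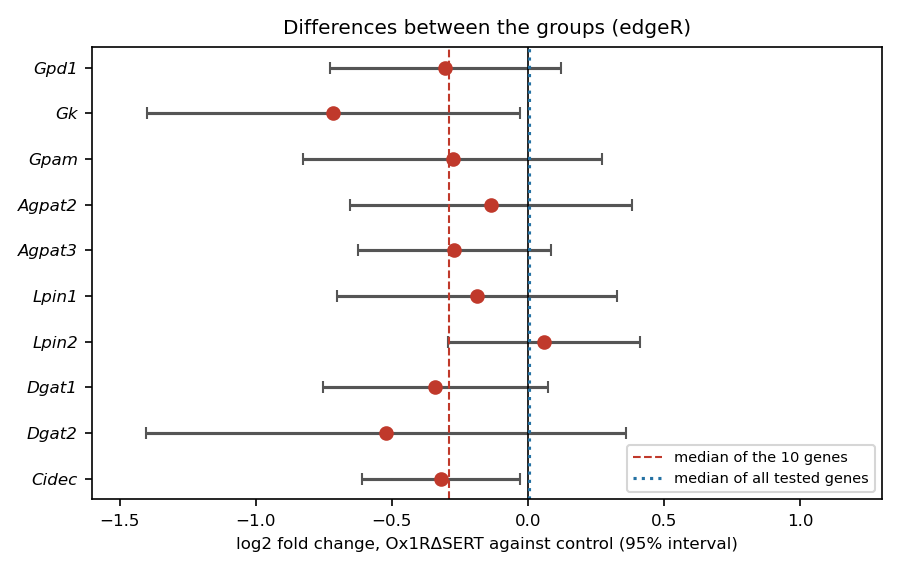
Log2 fold change of each gene in Ox1RΔSERT against control mice (edgeR, TMM scaling), with bars for the 95% interval of each gene. The dashed line marks the median of the 10 genes at -0.29 and the dotted line that of all tested genes at 0.00. Only the bars of *Gk* and *Cidec* end below 0, and on the TPM scale *Gpd1*, *Gpam*, *Agpat2*, *Agpat3* and *Lpin1* turn to the other side of 0.

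The scale moved all genes and not these 10 alone. With libraries scaled by their totals alone the median of all tested genes was 0.22 and that of the 10 genes -0.09, and on the log2(TPM + 1) scale they were 0.23 and 0.02. Set against that all-gene median, the 10 genes lay at -0.29 with TMM scaling, -0.31 with library totals and -0.21 with log2(TPM + 1). With each of these scalings 9 of the 10 genes lay below the median of all genes and *Lpin2* above it. Without mice 11601 and 11708, the 10 genes lay at -0.07 relative to all genes.

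Mice 11601 and 11708 had the 2 lowest normalized values of the 8 mice in 6 of the 10 genes, and in 15.3% of all tested genes. Mouse 11601 was among the 2 lowest in 8 of the 10 and mouse 11708 in 7. These mice had the highest summed macrophage and fibroblast markers and the lowest summed adipocyte markers, a sum that is mostly *Fabp4* and that *Lep* and *Cfd* did not follow. Mouse 10684 had the highest value in 6 of the 10 genes (*Gpd1*, *Agpat2*, *Agpat3*, *Lpin1*, *Dgat2* and *Cidec*) and the second lowest *Gk*. Its summed macrophage (177) and fibroblast (209) markers lay within or below the range of the other control mice.

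**Figure D4:**
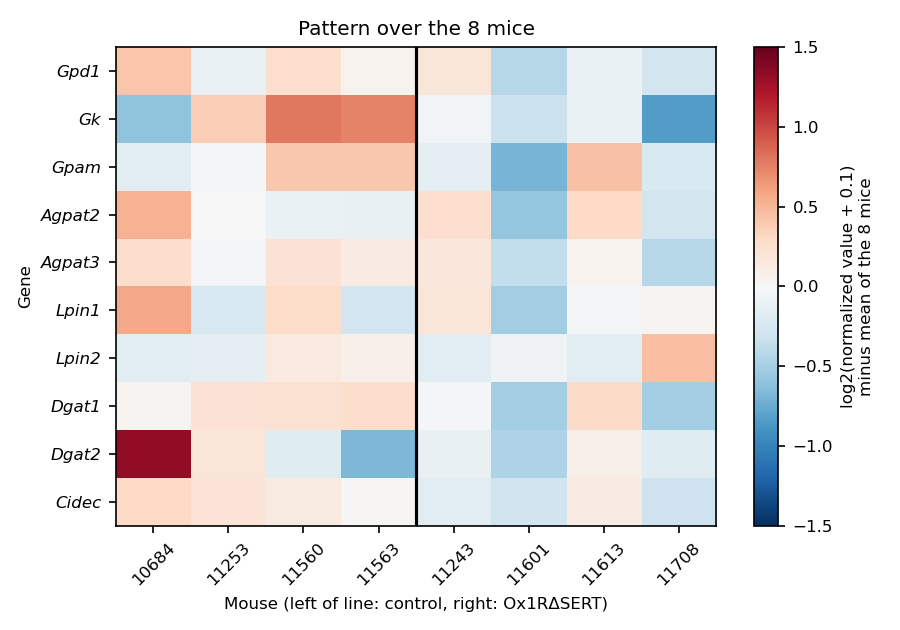
Deviation of each gene in each mouse from its mean over the 8 mice, as log2(normalized value + 0.1), with red above and blue below the mean and a line between control and Ox1RΔSERT mice. The columns of mice 11601 and 11708 are blue for most genes, mouse 11708 is red for *Lpin2* (25.7), and mouse 10684 is deepest red for *Dgat2* (1380) and blue for *Gk* (278).

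The genes whose pattern over the 8 mice was most like that of *Cidec* were, by Pearson correlation of log2 normalized values, *Ddt* (0.987), *Acss1* (0.975), ENSMUSG00000099697 (0.965), *Oxct1* (0.963) and *Slc22a5* (0.959). *Acss1* makes acetyl-CoA from acetate in mitochondria, *Oxct1* starts the use of ketone bodies and *Slc22a5* imports carnitine. Both genes of a pair were read in the same 8 libraries, and these genes were picked as the highest of all tested genes. The correlations describe these mice only.

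Other genes of the pathway were grouped into 6 lists of 55 genes, of which 48 passed the filter. Of the 48, 17 had a higher and 31 a lower mean in Ox1RΔSERT mice, with a median log2 fold change of -0.09. None passed an adjusted p of 0.05 in edgeR, 2 had an unadjusted p under 0.05 (15.2% of all tested genes did) and DESeq2 called 1 (1.75% of all). The 3 members of the droplet assembly list with the lowest p were *Hilpda*, *Fitm2* and *Bscl2*.

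*Hilpda*, which restrains lipolysis at droplets, was the gene that DESeq2 called (adjusted p = 0.0359). Its normalized values were 5.18, 5.07, 4.63 and 6.12 in control mice and 5.66, 12.3, 9.27 and 14.9 in Ox1RΔSERT mice, a log2 fold change of 1.01 (edgeR unadjusted p = 0.00516, adjusted p = 0.316). Mouse 11243 lay among the control mice and the other 3 Ox1RΔSERT mice above them, with 11601 and 11708 highest. Without those 2 mice the log2 fold change of *Hilpda* was 0.51 (edgeR unadjusted p = 0.0544). *Fitm2*, an endoplasmic reticulum protein of droplet budding, had means of 254 ± 19.0 and 196 ± 39.3 (SD, n = 4 each) and an edgeR adjusted p of 0.316. *Bscl2*, which encodes seipin, had means of 121 ± 3.65 and 101 ± 18.2 (SD, n = 4 each) and an edgeR adjusted p of 0.353. The log2 fold changes of *Fitm2* and *Bscl2* were -0.37 and -0.26, and -0.16 and -0.06 without mice 11601 and 11708.

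No gene of the other 5 lists reached an unadjusted p under 0.05 in edgeR. In glycerol 3-phosphate supply, 3 genes were higher and 5 lower, and *Slc2a4*, the insulin-responsive glucose transporter, had the lowest p (means 290 ± 56.7 and 216 ± 56.0, SD, n = 4 each, edgeR adjusted p = 0.366). Its log2 fold change was -0.42, and -0.16 without mice 11601 and 11708. Among other acyltransferases and phosphatases, 5 were higher and 6 lower, with a median of -0.10. The lowest p there was that of *Agpat4*, with means of 2.77 ± 0.804 in control and 5.88 ± 4.31 in Ox1RΔSERT mice (SD, n = 4 each, edgeR adjusted p = 0.337), followed by *Agpat1* at 73.4 ± 2.10 and 62.5 ± 9.20 (SD, n = 4 each, edgeR adjusted p = 0.348). *Gpat4*, the GPAT enzyme of the endoplasmic reticulum, was at 381 ± 32.5 and 288 ± 85.4 (SD, n = 4 each, edgeR adjusted p = 0.354). The log2 fold changes of *Agpat4*, *Agpat1* and *Gpat4* were 1.09, -0.23 and -0.40. They were -0.04, -0.06 and -0.11 without mice 11601 and 11708. Fatty acid activation had 2 higher and 2 lower, and the phospholipid branch, which draws on the same intermediates, 2 higher and 9 lower, with medians of -0.05 and -0.07.

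Among 8 regulators, 3 were higher and 5 lower, with a median of -0.10. *Nr1h3*, a liver X receptor that regulates lipid synthesis, had the lowest p, with means of 55.8 ± 1.52 in control and 45.4 ± 9.90 in Ox1RΔSERT mice (SD, n = 4 each, edgeR adjusted p = 0.352). Of its Ox1RΔSERT values, 37.3 and 38.2 were those of mice 11601 and 11708. Without those 2 mice the log2 fold change of *Nr1h3* was -0.06.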

How the data were processed

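The authors sequenced stranded poly-A libraries of BAT. Per the labels and their methods, reads were processed with nf-core/rnaseq 1.4 and Salmon 0.14.1 on GRCm38.p6, and the annotation release and strand setting are not given in the sources used here. The authors deposited expected counts per gene, as Salmon estimates, and TPM. Counts were rounded here and tested with edgeR 4.0.16 (R 4.3.3; filterByExpr, TMM, quasi-likelihood test, 2 groups, no covariate, Benjamini-Hochberg over 14489 genes, threshold 0.05). The mice were treated as independent, because the labels give no record of shared litters. The p-values weigh the difference between groups against the spread between mice. DESeq2 1.42.0 and limma 3.58.1 were alternatives, limma on log2(TPM + 1) or log2(TPM + 0.1). Exact permutation tests used all 70 assignments of the 8 mice. Symbols came from an annotation matching 98.8% of identifiers. The tests were checked on simulated data. Named were all 10 genes, at most 3 of each other list with the lowest p, and the 5 most like the member with the lowest p. Members and lists were chosen with earlier results of these data known.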

Additional observations from a re-analysis of the deposited data

Results flagged for a closer look

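In 2 of the 20 gene and group combinations looked at, 1 mouse stood farther from its group than Dixon's 95% critical value of 0.829 for 4 mice, which chance does in about 1 of 20 groups. For *Agpat2* in control mice the gap of mouse 10684 (496) to the next mouse (348) was 0.844 of the range of the group. For *Lpin2* in Ox1RΔSERT mice the gap of mouse 11708 (25.7) to the next mouse (18.2) was 0.850 of the range.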

How the results depend on the processing

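Of 200 values (10 genes under 20 alternatives each), 181 kept their direction and their side of the threshold and 19 reversed. A direction that was kept could still shrink: on the log2(TPM + 1) scale *Gk* was at -0.28, *Dgat1* at -0.021 and *Dgat2* at -0.013. No gene of the 10 was called in any alternative, with a lowest adjusted p of 0.186. Log2 fold changes reversed with library totals alone for *Agpat2* (0.047) and *Lpin1* (0.0039), on the log2(TPM + 1) scale for *Gpd1* (0.0154), *Gpam* (0.0241), *Agpat2* (0.167), *Agpat3* (0.0586) and *Lpin1* (0.166), and on the log2(TPM + 0.1) scale for *Gpd1* (0.0154), *Gpam* (0.0241), *Agpat2* (0.167), *Agpat3* (0.0588) and *Lpin1* (0.169). They reversed without mice 11601 and 11708 for *Gpam* (0.0073), *Agpat2* (0.18) and *Lpin2* (-0.14). With 1 mouse left out at a time, *Agpat2* ran from -0.269 to 0.032 (0.032 without control mouse 10684, 0.0087 without mouse 11601), *Dgat2* from -0.762 to 0.0277 (0.0277 without mouse 10684) and *Lpin2* from -0.104 to 0.118 (-0.104 without mouse 11708). The median of the 10 genes was -0.0939 with library totals, 0.0197 and 0.0198 on the log2(TPM + 1) and log2(TPM + 0.1) scales, -0.0817 without mice 11601 and 11708 and -0.38 to -0.21 with 1 mouse left out. DESeq2 called 265 genes and edgeR 0, and 2201 genes and 2 of the 10 had an unadjusted p under 0.05 in edgeR. That count of 2 was 0 with library totals, on both TPM scales and without mice 11601 and 11708, 1 with a transcript length offset or limma voom, and 0 to 3 with 1 mouse left out. It was 0 without control mouse 11253 or 11560 or Ox1RΔSERT mouse 11601 or 11708, 1 without control mouse 10684 or 11563, and 3 without Ox1RΔSERT mouse 11243 (*Gpd1*, *Gk*, *Agpat3*) or 11613 (*Gpam*, *Dgat1*, *Cidec*). Genes without overlap numbered 0 to 2 with 1 mouse left out: 1 without control mouse 10684 (14.1% of all genes), 1 without control mouse 11563 (8.54%) and 2 without mouse 11613 (10.4%). Each mouse left out there held the overlapping value of the gene, so the loss of overlap followed from leaving it out. The cause of the changes between settings was not tested. Overlap was not recomputed under DESeq2, the filters, log2(TPM + 0.1), the length offset or voom. No paired analysis was possible because the labels link no control mouse to an Ox1RΔSERT mouse. The lowest estimated count in a library was 538 for *Lpin2*, 4282 for *Dgat1* and higher for the other genes.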

Other observations

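Control mouse 10684 also stood apart in 2 regulators of lipid synthesis that were picked after their values were seen. *Srebf1*, a transcription factor gene that insulin induces, had a normalized value of 224 in mouse 10684 and of 41.4 to 106 in the other 7 mice. *Cebpa*, an adipocyte transcription factor gene, was at 204 in mouse 10684 and at 83.8 to 158 in the other 7. *Ppargc1a*, a coactivator of mitochondrial and thermogenic genes, was lowest there, at 34.3 against 45.8 to 112.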
